A study of Mus musculus with 2 samples.

Results

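S100 genes encode small calcium-binding proteins, and 10 of them were described here in the liver of B6NCrl mouse embryos at embryonic day 16.5. They were chosen by symbol, as S100a8, S100a9, S100a11, S100a10, S100a1, S100a13, S100g, S100a6, S100a4 and S100b, and all 10 were found among the 43346 Ensembl genes of the tables. Their 16 annotated transcripts were found among 129984 transcript rows. The study holds 1 group of 2 biological replicates. Each is a total RNA library, made from 10 ng of RNA above the small-RNA size range, from the pooled livers of healthy male and female embryos with no treatment or mutation named. The pool of replicate 2 held 41 embryos, the labels give no number for replicate 1, and both carry 1 donor identifier. With 1 condition the design allows a description of levels and of how far the libraries differ, with no p-value. Values are TPM, a gene's abundance per length relative to all transcripts of its library, and a mean is given with the SD of the 2 libraries (n = 2).

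An S100 protein holds a pair of EF-hands, the helix-loop-helix folds that bind calcium, and usually works as a dimer that grips a partner protein once calcium is bound. S100A8 and S100A9 together form calprotectin, which fills the cytosol of neutrophils, binds zinc and manganese and is released as an alarm signal. Others act inside cells on annexins and the cytoskeleton. In fetal life the liver is the main site of blood formation, so hepatocytes, red cell precursors and developing white cells lie side by side in it.

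Liver and blood-forming markers were abundant. All 6 hepatocyte markers, Afp, Alb and Apoa1 leading, and all 6 erythroid markers, Alas2 and Slc4a1 among them, reached 100 TPM in each library. Fgb was the lowest of the first list at 734 ± 48.3 TPM and Epb42 of the second at 140 ± 11.4 TPM. The list medians were 3875 ± 235 TPM for hepatocytes and 540 ± 38.9 TPM for erythroid cells (SD, n = 2). The libraries held 44477766 expected counts in replicate 1 and 48820712 in replicate 2.

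Promoter windows from RefSeq (build GRCm38.p6) were matched to 9 of the 10 genes by symbol, S100a10 being the other one. Each window runs from 250 bases before the start that RefSeq annotates to 50 bases from it onwards. That start is the GENCODE M21 start in 3 of the 9 genes, S100a9, S100a13 and S100g, while it lies 93 bases downstream of the M21 start in S100a8, 62 in S100a1, 12 in S100a6 and 8 in S100a11, and upstream of it by 17 bases in S100b and 1 in S100a4. Shown are S100a8 and S100a9, the 2 genes that carried most of the S100 level, S100a11, the next in order, and S100g, which had the lowest ratio between libraries. Sequences run 5′ to 3′ on the gene's strand, and capitals mark the motifs searched on both strands, which were TATAAA for the TATA box, GGGCGG for the GC box, GAGGAA for the core of PU.1 sites and TTNNGNAAT for C/EBP sites. S100a8 lies at chr3:90668821-90669120 (plus strand), S100a9 at chr3:90695672-90695971 (minus strand), S100a11 at chr3:93520246-93520545 (plus strand) and S100g at chrX:162964550-162964849 (minus strand).
S100a8: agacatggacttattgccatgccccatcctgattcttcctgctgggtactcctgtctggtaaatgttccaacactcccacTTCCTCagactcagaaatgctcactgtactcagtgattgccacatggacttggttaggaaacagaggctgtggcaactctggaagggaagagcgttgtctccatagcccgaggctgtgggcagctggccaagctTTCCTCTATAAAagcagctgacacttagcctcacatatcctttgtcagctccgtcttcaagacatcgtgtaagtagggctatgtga
S100a9: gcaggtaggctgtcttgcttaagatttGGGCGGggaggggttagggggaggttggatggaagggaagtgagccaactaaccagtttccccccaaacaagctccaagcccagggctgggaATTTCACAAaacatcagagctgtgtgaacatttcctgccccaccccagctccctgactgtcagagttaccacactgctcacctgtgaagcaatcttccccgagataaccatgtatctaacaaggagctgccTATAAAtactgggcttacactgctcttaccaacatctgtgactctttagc
S100a11: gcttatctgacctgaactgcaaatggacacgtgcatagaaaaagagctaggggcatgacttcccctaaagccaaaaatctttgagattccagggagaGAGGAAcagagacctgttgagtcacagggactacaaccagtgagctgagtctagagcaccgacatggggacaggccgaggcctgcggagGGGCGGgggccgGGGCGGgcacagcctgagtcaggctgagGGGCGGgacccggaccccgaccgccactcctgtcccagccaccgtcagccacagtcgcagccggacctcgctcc
S100g: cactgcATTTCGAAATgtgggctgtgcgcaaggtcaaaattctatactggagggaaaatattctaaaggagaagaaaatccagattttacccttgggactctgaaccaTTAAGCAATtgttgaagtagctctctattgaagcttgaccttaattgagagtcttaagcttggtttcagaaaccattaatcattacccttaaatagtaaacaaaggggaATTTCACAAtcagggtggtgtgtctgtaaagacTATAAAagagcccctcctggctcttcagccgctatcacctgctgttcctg

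TATAAA was present in 4 of the 9 windows, against 13.6% of 32851 windows of the same length. In S100a8 it spanned bases -30 to -25 and in S100a4 bases -31 to -26, counted from 0 at the RefSeq start. Counted from the M21 start, the letters in S100a8 span bases 63 to 68 and so lie inside the first M21 exon. In S100a9 and S100g it spanned bases 0 to 5, where both annotations place the start of the gene. In S100a9 that is the start of the minor transcript ENSMUST00000117167.1, while the leading transcript starts 10 bases downstream. GGGCGG was present in 2 windows (35.7% of all), 3 times in S100a11 and once in S100a9. GAGGAA was present in S100a8, S100a4 and S100a11 (28.3% of all), and TTNNGNAAT in S100a9 and S100g (11.5% of all). No match of 1 motif overlapped another motif, and in S100g the matches of TTNNGNAAT from bases -244 and -243 overlap each other on opposite strands. The windows of S100a1, S100a13, S100a6 and S100b held none of these letters. A match describes the window only, and no binding was measured.

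S100a8 and S100a9 carried nearly the whole S100 level. The 10 genes summed to 4911 TPM in replicate 1 and 5062 TPM in replicate 2, which is 0.491% and 0.506% of all TPM. S100a8 and S100a9 held 94.4% of that sum in replicate 1 and 94.0% in replicate 2. S100a8 (ENSMUSG00000056054.8) stood at 3107 and 3183 TPM, on 38319 and 42420 expected counts, and ranked 23rd of all genes. S100a9 (ENSMUSG00000056071.8) stood at 1530 and 1575 TPM, on 26668 and 29657 expected counts, and ranked 40th. Both libraries placed S100a8 above S100a9, and no value of one gene reached the values of the other. The ratio of S100a8 to S100a9 was 2.03 ± 0.00661 (SD, n = 2) in TPM.

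That ratio depends on the length assigned to S100a8. The deposited tables give its transcript 392 nt, while the GENCODE M21 model of the same transcript has 486 exonic bases. With the M21 lengths the ratio was 1.53 and with undivided counts 1.43, so S100a8 was above S100a9 on each of these scales. Together the pair took 0.146% of the counts of replicate 1 (95% Wilson interval 0.145 to 0.147) and 0.148% of those of replicate 2 (0.147 to 0.149). Such intervals cover counting error only, since reads without molecular identifiers are not independent molecules.

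**Figure D1:**
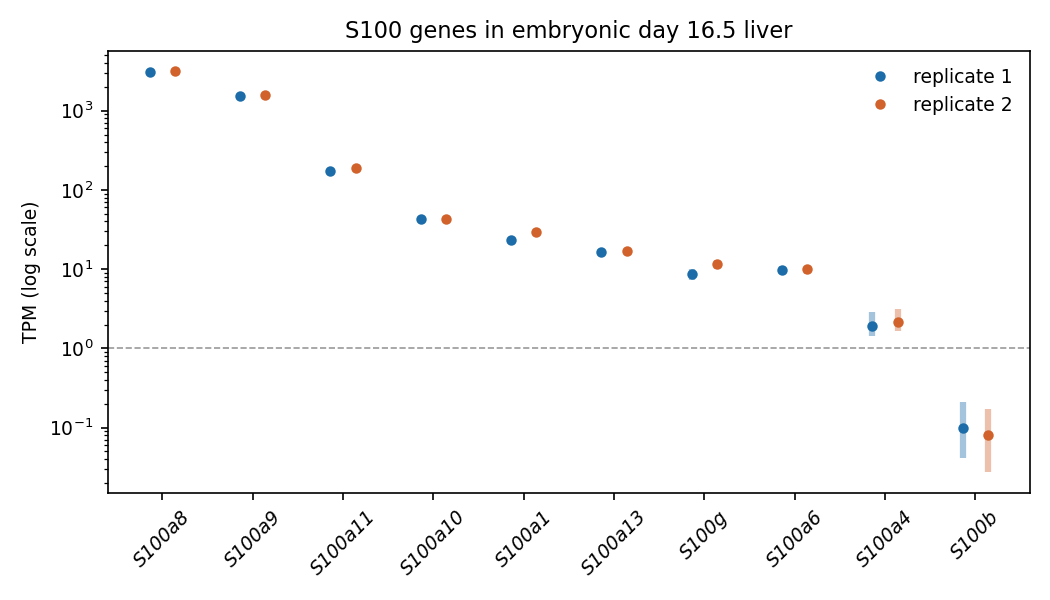
TPM on a log axis for the 10 S100 genes, in order of mean level, with a point for each library and a pale bar for its deposited TPM interval, whose level is not stated and which the point hides for most genes. S100a9, the lower of the leading pair, sits at about 1553 TPM, S100b alone lies below the dashed line at 1 TPM, and S100g and S100a6 are the only neighbours whose library values overlap.

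S100a11 and S100a10, whose proteins both bind annexins, came next. S100a11, whose protein binds annexins A1 and A2, stood at 171 and 191 TPM. It was the third highest and made up 62.7% ± 0.271 of the level outside S100a8 and S100a9. Its counts, 2971.91 and 3582.72, were not whole, so some of its reads were divided with other rows, while the pseudogene S100a11-ps held 0 counts in both libraries. S100a10 stood at 42.5 and 42.6 TPM. Its protein is the light chain of annexin A2 and has lost the ability to bind calcium. S100a9 was 8.59 ± 0.489 times as high as S100a11, and S100a11 was 4.26 ± 0.320 times as high as S100a10.

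S100a1 and S100a13 lie head to head. Their GENCODE M21 starts are 43 bases apart on opposite strands. Their RefSeq starts are 105 bases apart, and the promoter windows around these share 204 bases. S100a1, whose protein is known from heart and skeletal muscle, where it acts on ryanodine receptors, stood at 23.3 and 29.5 TPM. S100a13, whose protein helps to release FGF1 and interleukin 1 alpha from cells, stood at 16.6 and 17.1 TPM. S100a1 was the higher in both libraries, at 1.56 ± 0.227 times S100a13. Their annotated exons do not overlap.

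S100g and S100a6 could not be ordered. S100g, which encodes calbindin-D9k, a calcium carrier of the gut and placenta that vitamin D induces, stood at 8.73 and 11.7 TPM. S100a6, which encodes calcyclin, stood at 9.81 and 9.93 TPM, within the range of S100g. S100a4, whose protein binds the heavy chain of non-muscle myosin and which is widely used as a marker of fibroblasts and some white cells, stood at 1.91 and 2.15 TPM on 32 and 39 counts. S100a6 was 4.88 ± 0.366 times as high as S100a4. Of the 10 genes, S100a4 alone overlaps an exon of another gene in GENCODE M21, Gm42674, on the same strand over 302 bases, and that gene is no row of the tables. Among the 9 pairs of neighbours in the order of level, 8 were apart in both libraries and only S100g and S100a6 overlapped.

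S100b, the gene of glia, was the lowest. It stood at 0.10 and 0.08 TPM on 6 and 5 expected counts, whose exact 95% Poisson intervals run from 2.20 to 13.1 and from 1.62 to 11.7 counts. For its length 3 counts, the upper limit that a count of 0 would allow, correspond to 0.051 and 0.048 TPM. Of the 10 genes, 9 reached 1 TPM in both libraries, 6 reached 10 TPM and 3 reached 100 TPM, where 27.9% of all Ensembl genes reached 1 TPM. For the higher limits, a mean of 10.2 TPM (S100g) ranked 6036th of 43346 Ensembl genes and one of 101 TPM (Col3a1) ranked 945th. With TPM rescaled over Ensembl genes outside the globins, 9 reached 1 TPM, 8 reached 10 TPM and 3 reached 100 TPM, a count added after seeing the data. No share of all genes was taken on that scale.

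High and low levels lay side by side on the chromosome. On chromosome 3 lie 8 of the 10 genes (GENCODE M21, GRCm38). S100a1 (90511034 to 90514392, minus strand), S100a13 (90514435 to 90524581), S100a4 (90603771 to 90606045), S100a6 (90612882 to 90624181), S100a8 (90668978 to 90670035) and S100a9 (90692632 to 90695721, minus strand) form a cluster. S100a11 (93520488 to 93526287) and S100a10 (93555080 to 93564643) lie about 3006 and 3041 kb from the start of S100a1. S100a8 and S100a9, whose starts are 26743 bases apart on opposite strands, stand at the far end of the cluster. Between S100a8 and S100a6 lies S100a7a, which held 0 counts in both libraries, where 3 counts would have been 0.111 and 0.103 TPM. S100b lies on chromosome 10 (76253853 to 76261159) and S100g on chromosome X (162961992 to 162964599, minus strand).

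**Figure D2:**
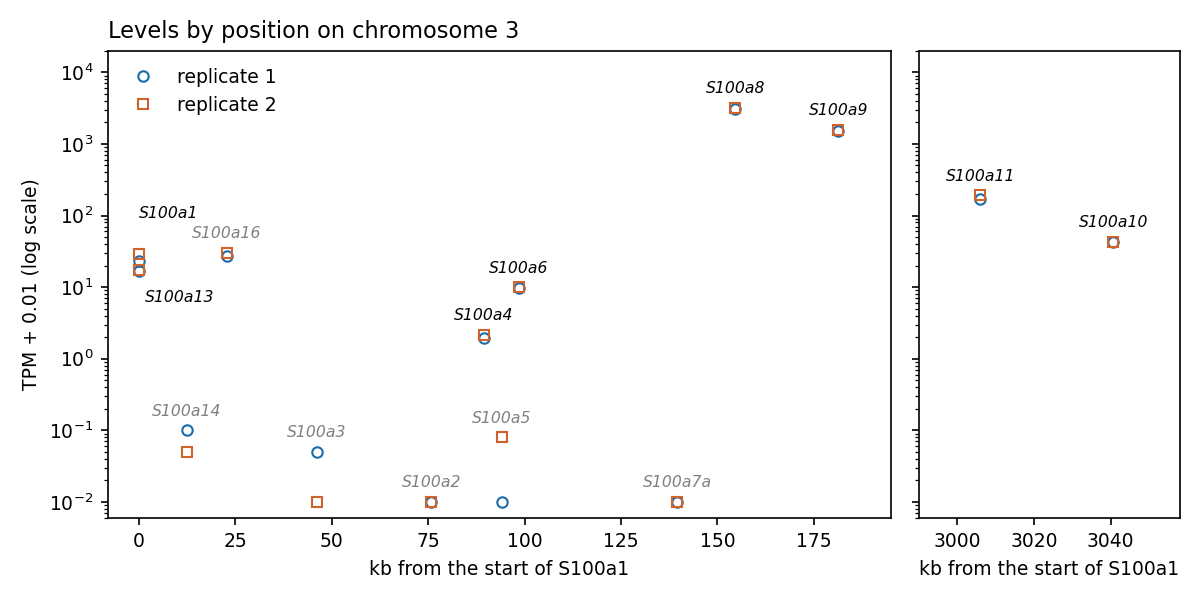
TPM + 0.01 on a log axis against distance in kb from the start of S100a1 on chromosome 3, for the S100 genes described (black names) and other S100 genes there (grey names), with circles for replicate 1 and squares for replicate 2. S100a8 and S100a9 stand highest, at the right end of the cluster, beside S100a7a at 0, and S100a11 and S100a10 stand apart at about 3006 and 3041 kb.

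Other S100 genes were mostly at the limit of detection. Of 6 found, only S100a16, which lies between S100a13 and S100a3, reached 1 TPM, at 27.6 and 30.3 TPM (mean 28.9 ± 1.94), close to S100a1. S100a14 stood at 0.09 and 0.04 TPM, S100a5 at 0 and 0.07 TPM, S100a3 at 0.04 and 0 TPM, and S100a7a and S100z at 0 in both. S100a2, which was not on that list and lies in the cluster, was also at 0 in both libraries, where 3 counts would have been 0.330 and 0.305 TPM. S100a14, S100a5 and S100a3 rest on 3 counts or fewer in each library. The S100 fused-type genes, large proteins of skin with an S100 domain, were all below 1 TPM in both libraries. Of these 7, Tchh was the highest at 0.04 TPM in both, Hrnr and Rptn each averaged 0.01 TPM, and 3, Crnn among them, were at 0.

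The genes shared a layout. In all 10 the coding sequence of the leading transcript starts in exon 2, and 9 of them have 3 exons, S100a13 having 4. Coding length ran from 79 codons in S100g to 160 in S100a13, with 89 in S100a8 and 113 in S100a9. These counts are those of GENCODE M21.

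Most of the genes were read as a single transcript. Of the 10 genes, 6 have 1 annotated transcript in the tables, and in S100a10 and S100a4 the leading transcript held 99.8% ± 0.0826 and 100% of the gene. In S100a9 a second transcript, ENSMUST00000117167.1, held 13.6% in replicate 1 and 13.3% in replicate 2, or 208 and 209 TPM. It starts 10 bases upstream of the leading transcript, at 90695721 in place of 90695711, and its exon 2 is 3 bases shorter. Both S100a9 transcripts have 339 coding bases from the same start, so they differ outside the coding sequence. In S100a1 the second transcript, ENSMUST00000107340.1, held 5.06% and 4.04%. It starts 114 bases downstream, its exon 2 is 17 bases longer and its coding sequence is 189 bases long, against 282 in the leading transcript. Its deposited TPM interval ran from 0.41 to 2.48 in replicate 1, around a value of 1.18 TPM, so the division of reads between the S100a1 transcripts is imprecise.

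S100a8 and S100a9 stood above every gene of a neutrophil list. All 16 genes of neutrophil granules and surface reached 1 TPM in each library, and their median was 26.4 TPM in replicate 1 and 25.3 TPM in replicate 2. Ngp, the neutrophilic granule protein gene, stood at 514 and 666 TPM, the myeloperoxidase gene Mpo at 372 in both, and the cathelicidin gene Camp at 350 and 390 TPM. Cxcr2, a chemokine receptor of mature neutrophils, was the lowest at 1.58 and 2.33 TPM. S100a8 was 8.46 ± 0.144 times as high as Mpo and 5.41 ± 0.896 times as high as Ngp. The sum of S100a8 and S100a9 was 2.41 times the sum of the list in replicate 1 and 2.17 times in replicate 2. All of these ratios use the deposited length of S100a8. With its M21 length S100a8 stood at 2352 and 2410 TPM, which lowers each of them, and their SDs do not cover this. In bulk tissue, fewer cells of a type and less RNA per cell cannot be told apart.

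The 2 libraries differed more in some granule genes than in S100a8 and S100a9. On a centred log2 scale, replicate 1 over replicate 2, S100a8 stood at -0.02 and S100a9 at -0.02. Mmp9, Ngp, Lcn2 and Ltf stood at -0.47, -0.36, -0.33 and -0.30, while Prtn3 and Ctsg stood at 0.16 and 0.29. These granule genes were chosen after their values were seen, and none of the 16 passed 1.5-fold. Their part in the S100a8 and S100a9 levels was not tested.

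**Figure D3:**
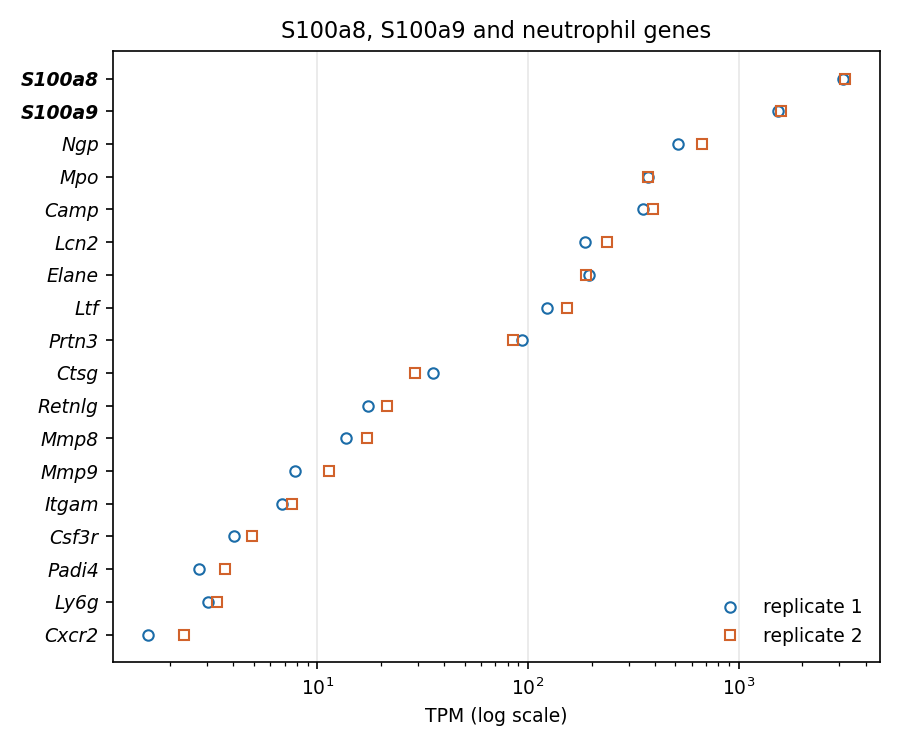
TPM on a log axis for S100a8, S100a9 and 16 neutrophil genes, ordered by mean level, with circles for replicate 1 and squares for replicate 2. S100a8 and S100a9 lie above all 16 genes, of which Ngp is the highest at 514 and 666 TPM.

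Genes on a list of myeloid transcription factors stood at low levels, and bulk tissue does not show which cells held them. Of 9 such genes 8 reached 1 TPM in both libraries, with a median of 7.10 ± 0.431 TPM. Stat3 stood at 31.5 ± 3.90, Irf8 at 15.3 ± 1.94 and Spi1, which encodes PU.1, at 15.3 ± 0.905 TPM, and Cebpb was the lowest at 0.47 ± 0.085 TPM.

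Receptors that bind extracellular S100 proteins were led by basigin. Of the 10 listed, 9 reached 1 TPM in both libraries, with a median of 6.95 ± 0.371 TPM. Bsg, the basigin gene, which encodes a membrane glycoprotein found on many cells and reported in humans to bind S100A9, stood at 814 and 827 TPM. Nptn, which encodes neuroplastin, stood at 83.7 and 73.7 TPM and Cd36 at 27.8 and 25.6 TPM. Ager, which encodes the receptor RAGE, was the lowest at 0.68 and 0.50 TPM. The toll-like receptor gene Tlr4 stood at 2.48 and 2.22 TPM. S100a8 and S100a9 were thus above all of these receptors, and RAGE was below 1 TPM in both libraries.

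Intracellular partners stood above their S100 genes in some cases and below them in others. Of 14 partners 12 reached 1 TPM in both libraries, with a median of 15.4 ± 0.654 TPM. Anxa2, which encodes annexin A2, stood at 163 and 173 TPM, so that S100a10 was at 0.254 ± 0.00970 of its partner. S100a11 was at 2.31 times Anxa1 in replicate 1 and 2.17 times in replicate 2, where Anxa1 stood at 74.2 and 88.2 TPM. Capzb, which encodes a subunit of the actin capping protein, stood at 128 and 118 TPM.

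Other partners spanned a wide range. S100a6 was at 0.123 ± 0.00934 of Cacybp, the calcyclin-binding protein gene, which stood at 84.0 and 76.4 TPM. Myh9, the non-muscle myosin gene that pairs with S100a4, stood at 17.4 and 19.2 TPM, above S100a4 itself. Fgf1 stood at 1.05 and 2.30 TPM and Il1a at 3.24 and 3.66 TPM, below S100a13. The ryanodine receptor genes Ryr1, at 0.10 and 0.21 TPM, and Ryr2, the lowest at 0.04 TPM in both, were below 1 TPM while S100a1 was above 20 TPM.

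**Figure D4:**
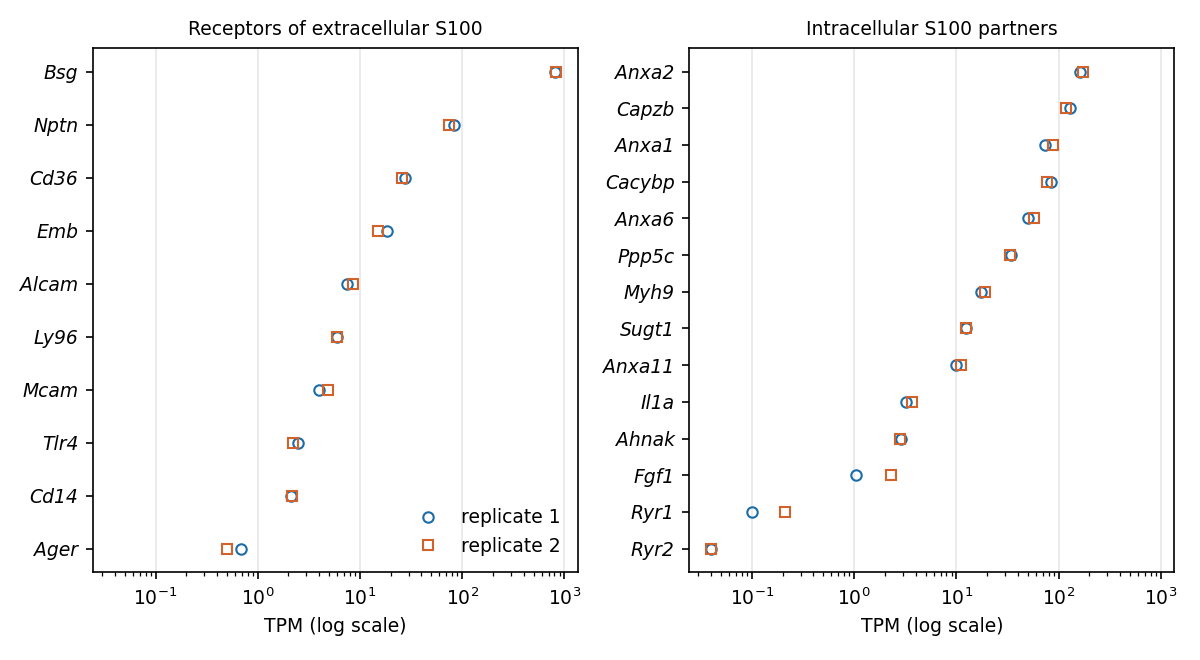
TPM on a log axis for 10 receptors of extracellular S100 proteins (left) and 14 intracellular partners (right), each ordered by mean level, with circles for replicate 1 and squares for replicate 2. Bsg leads the receptors at about 820 TPM and Anxa2 the partners at about 168 TPM, while Ager, Ryr1 and Ryr2 lie below 1 TPM.

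Genes of the transport pathway in which S100g is known were nearly silent. Of 7 genes of calcium transport across epithelia only Atp2b1, a calcium pump of many cell types, reached 1 TPM, at 8.39 and 8.32 TPM. Slc8a1 averaged 0.495 ± 0.00707 and the vitamin D receptor gene Vdr 0.20 ± 0.11 TPM. The channel genes Trpv5 and Trpv6 stood at 0.045 and 0.040 TPM on average, and Calb2 was the lowest at 0.010 ± 0.014. S100g was above all 7 in both libraries, at 8.73 and 11.7 TPM (mean 10.2 ± 2.07). Its deposited interval in replicate 1, 7.28 to 10.1 TPM, held the value of Atp2b1. Other EF-hand genes were higher as a group, 11 of 13 reaching 1 TPM in each library, and their median was 57.0 ± 5.06 TPM. Myl6 stood at 387 ± 12.7 and Calm2 at 303 ± 21.7 TPM, both below S100a8 and S100a9. Pvalb, the parvalbumin gene, was the lowest at 0.015 ± 0.021 TPM.

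S100b and S100a4 were low beside markers of the cells they are often used to label. Of 7 genes of glia and neural crest, 3 reached 1 TPM in both libraries. Gfap stood at 6.85 ± 0.537, Erbb3 at 4.11 ± 0.636 and Ngfr at 2.01 ± 0.0919 TPM, while Sox10, a transcription factor gene of Schwann cells, was at 0.080 ± 0.042 TPM. All 8 stromal genes reached 1 TPM, and their median was 47.9 ± 5.37 TPM. Col3a1 stood at 101 ± 11.8, Vim at 72.2 ± 0.955 and Col1a1 at 67.5 ± 14.5 TPM, and the lowest, Des, at 9.25 ± 4.12 TPM, was above S100a4. Monocyte and macrophage genes had a median of 32.3 ± 2.50 TPM, with Lyz2 at 627 ± 29.6, C1qb at 119 ± 6.94, Cd5l at 73.6 ± 2.04 and Vsig4 lowest at 4.23 ± 0.559. The median of the megakaryocyte list was 25.0 ± 1.88, led by Pf4 (215 ± 2.81 TPM) and Ppbp (124 ± 10.7 TPM), then Itga2b (27.0 ± 2.87 TPM), and Vwf was its lowest (9.84 ± 0.912 TPM), while endothelial genes had a median of 15.0 ± 0.566, with Egfl7 at 46.3 ± 1.79, Lyve1 at 22.5 ± 0.12, Stab2 at 21.9 ± 0.552 and Cdh5 lowest at 7.02 ± 0.339 TPM.

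The libraries were within 1.5-fold of each other in the S100 genes compared, while the deposited intervals of some of these genes did not overlap. Of the 10, 8 averaged at least 100 expected counts over the libraries and were compared with every gene that did so, S100a4 and S100b falling below. None of the 8 passed 1.5-fold on log2(TPM + 1), centred on the median of all genes compared, where 1.13% of 12017 genes did, a share at which 0 of 8 is no result about the S100 genes. Their median absolute log2 ratio was 0.02, against 0.11 over all genes compared, and 3 of the 8, S100g, S100a1 and S100a11, were above 0.11. These medians were not matched for counts, and S100a8 and S100a9 rest on many counts. The ratio is of 1 library over 1 and has no replicate check.

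S100g and S100a1 had the lowest ratios, replicate 1 over replicate 2. S100g stood at -0.36 and S100a1 at -0.31, followed by S100a11 at -0.14, while the other 5 lay between -0.02 and 0.01. The deposited TPM intervals of S100a8, S100a9, S100a11 and S100a1 did not overlap between libraries, and each was lower in replicate 1. Over all genes compared, 25.4% had intervals apart and 14.3% had them apart and lower in replicate 1. These shares were not matched for counts, and the intervals of S100a8 and S100a9, which rest on many counts, are narrow. The intervals are also of TPM before centring, where the median log2 ratio of all genes compared was -0.018. The TPM of S100a8 and S100a9 exceeded the upper end of their own intervals, so these intervals were read only against each other. Scaled to the spike-ins in place of TPM, the median of all genes compared moved by 0.30 on the log2 scale, and S100a8, S100a9, S100a11, S100a1 and S100a13 then stood at 0.34, 0.33, 0.21, 0.03 and 0.31, which turns their direction, while S100g stood at -0.04.

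Markers of gut, muscle and stroma were mostly lower in replicate 1, as S100g and S100a1 were. This was not particular to them, since the median log2 ratio of each other cell type list was negative too. It was -0.35 for mesothelial and bile duct genes, -0.24 for neutrophil, -0.12 for hepatocyte and -0.04 for erythroid genes. The 5 genes of intestinal epithelium summed to 13.5 TPM in replicate 1 and 36.9 TPM in replicate 2, and 3 of the 4 compared were lower in replicate 1 past 1.5-fold, Vil1 being the other one. Lgals4 stood at 5.43 and 19.5 TPM, Fabp2 at 7.27 and 14.4, Vil1 at 0.60 and 1.42, and Cdx2, the lowest, at 0 and 0.15 TPM. The 5 genes of striated muscle summed to 56.7 TPM in replicate 1 and 124 TPM in replicate 2, and 3 of the 4 compared were lower past 1.5-fold. Over all genes compared, 1.13% passed 1.5-fold in either direction. Actc1 stood at 32.0 and 70.2 TPM, Ckm at 19.3 and 44.6, Tnnt2 at 3.17 and 5.19, and Myh6, the lowest, at 0.09 and 0.02 TPM. Among 6 mesothelial and bile duct genes, whose median was 3.01 ± 1.21 TPM, Krt19 stood at 2.50 and 8.28, Upk3b at 3.89 and 4.72, Epcam at 0.76 and 5.75, and Wt1 lowest at 0.71 and 0.96 TPM. Among the 8 stromal genes the median log2 ratio was -0.26, Des stood at -0.82, past 1.5-fold, Acta2 at -0.53 and Col1a1 at -0.42, while Vim and Lum stood at -0.01 and 0.02. The part of these tissues in the S100g and S100a1 levels was not tested.

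**Figure D5:**
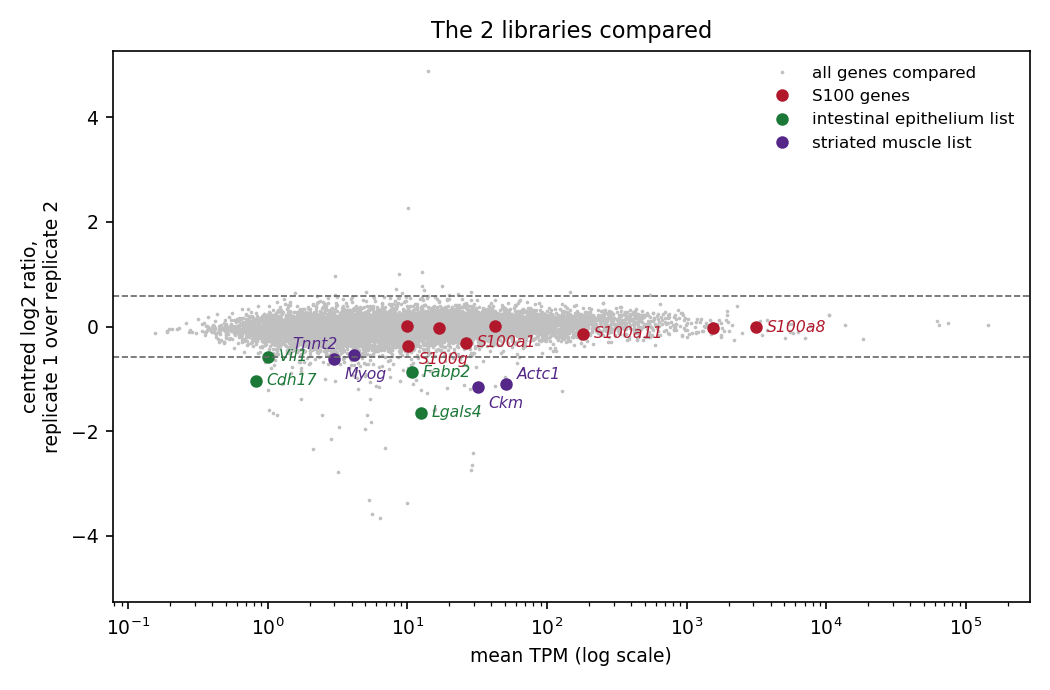
Centred log2 ratio of TPM + 1, replicate 1 over replicate 2, against mean TPM on a log axis, for 12017 genes (grey), 8 S100 genes (red), and the intestinal (green) and muscle (purple) genes compared, with dashed lines at 1.5-fold. The S100 genes lie between the lines, S100g lowest at -0.36, while Lgals4, Fabp2, Cdh17, Actc1, Ckm and Myog lie below them.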

How the data were processed

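RNA of 2 libraries from pooled E16.5 livers was quantified by the authors on mm10 with GENCODE M4, per the text deposited beside the tables. The column names are those of RSEM; the aligner and versions are not given in the sources used here. Expected counts, deposited per gene and transcript, are estimates that divide shared reads and need not be whole. A count within 0.01 of a whole number was taken as whole. TPM, deposited with a posterior mean TPM and intervals of unstated level, is scaled over all rows, spike-ins included. The deposited percent of a gene per transcript was recomputed here from TPM.

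Symbols and positions came from GENCODE M21 (GRCm38, called mm10), IDs matched without version; 42462 of 43346 Ensembl genes matched. The S100 genes, lists and thresholds were chosen with earlier results of these data known. Named are every S100 gene and, of each list, the 3 highest and the lowest by mean TPM, and transcripts with 5% or more of their gene. S100a2, S100a3, S100a7a, Cacybp, Acta2, Lum, Myh9, Fgf1, Il1a, Ryr1, Tlr4, Sox10, Trpv5, Trpv6, Cdh17, Myog, Lcn2, Ltf, Mmp9, Prtn3 and Ctsg were added after their values were seen. Nothing shows that the replicates came from separate litters, so SDs may be partly technical. S100a7l2 was not analysed here. Some genes that the rule names are not reported here. Expressed means 1 TPM or more in both libraries.

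For replicate 1 over replicate 2, the log2 ratio of TPM + 1 was taken and the median over genes averaging at least 100 expected counts was set to 0. The step was tested on simulated data. Alternatives used edgeR 4.0.16 and DESeq2 1.42.0 (R 4.3.3) on counts rounded to whole numbers. Python 3.11.15 ran the rest, with pandas 2.3.3, numpy 2.4.6, matplotlib 3.10.9 and scipy 1.17.1.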

Additional observations from a re-analysis of the deposited data

How the results depend on the processing

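The summed level of the 10 genes was 4987 TPM, and 8167 when TPM was rescaled over Ensembl genes outside the globins, 5223 when rescaled over Ensembl genes, and 4226 with the exonic lengths of GENCODE M21, an alternative chosen after seeing the data. With each library alone it was 4911 to 5062. The share of S100a8 and S100a9 was 94.2%, 92.0% in expected counts and 93.2% with M21 lengths, and 94.0% to 94.4% with each library alone. Their ratio was 2.03, 1.43 in expected counts and 1.53 with M21 lengths, and 2.02 to 2.03 with each library alone. Posterior mean TPM moved none of these 3 values by more than 1 SD. Of 60 alternatives for single genes, 21 moved the level by 1 SD or more. The 60 include each library alone. With n = 2 such a value always lies within 1 SD of the mean, so it could not count as moved. The 8 S100 genes compared became 9 with a count minimum of 10, and 10 with none. Of them 0 were past 1.5-fold under the other pseudocounts, scalings, count filters and posterior mean. Under these settings 0.3% (pseudocount of 10) to 4.91% (spike-in scaling) of all genes compared passed. At such shares 0 is no result about the S100 genes. A 2-fold limit could give no other count of S100 genes. The largest absolute log2 ratio of an S100 gene was 0.39, for S100g with a pseudocount of 0.1. Scaling to the spike-ins turned the sign for S100a8, S100a9, S100a11, S100a1 and S100a13, to between 0.03 and 0.34. Elsewhere the sign turned for S100a8 with DESeq2's size factors (0.0016), for S100a6 with a pseudocount of 10, the posterior mean or no count filter, and for S100a10 with no count filter, each within 0.02 of 0. In expected counts S100a6 stood above S100g. No paired analysis was possible because the labels give 1 group. Depth limits S100b and S100a4, which rest on 6 or fewer and 39 or fewer counts in each library.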
